A study of Sus scrofa with 3 samples.

Results

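The miR-133 family was followed in small RNA sequencing of porcine psoas major, a muscle of the loin, in pigs aged 63, 98 or 161 d. Its members were all rows of the deposited miRNA lists whose name is a porcine mature miR-133a or miR-133b: ssc-miR-133a-3p, ssc-miR-133a-5p and ssc-miR-133b. They are 3 of the 276 porcine mature names listed in at least 1 library, and all 3 were listed in every library. They arise from 3 hairpins, so each library held 5 rows of the family, 1 for each arm and hairpin. The muscle came from fattening pigs, which the study describes as castrated hybrid males (Landrace × Large White × Duroc). Each age was 1 library made from RNA pooled over several pigs. There is therefore no replicate check: the tests compare libraries, not ages, and all intervals cover counting error only. The lists held 1464699, 2418187 and 2242716 reads at 63, 98 and 161 d, and levels are given as counts per 1000000 reads of these totals (CPM).

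miRNAs of the miR-133 family are made in skeletal and cardiac muscle, where they are classed with miR-1 and miR-206 as myomiRs, miRNAs of striated muscle. A hairpin precursor is cut into a duplex, and 1 strand is loaded into an Argonaute protein while the other is mostly degraded. The loaded strand of miR-133 is the 3p arm, and the 5p arm is its partner strand. A miRNA finds its target mRNAs mainly by its seed, bases 2 to 8 from the 5′ end, so a change in where a read starts changes the seed. In mammals, mir-133a hairpins lie in clusters with mir-1 and the mir-133b hairpin lies beside mir-206. miR-133 is known for limiting myoblast differentiation and supporting proliferation, and serum response factor is among its classical targets.

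The mature sequences are shown first, because the members differ by few bases and a read can fit several of them. Capitals mark the seed. The listed read is the 1 sequence that the pipeline shows for a row, whereas the row's count covers all reads placed there.
ssc-miR-133a-3p, annotated: tTGGTCCCcttcaaccagctg
ssc-miR-133a-3p, listed read at 63 and 98 d: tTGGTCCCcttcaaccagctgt
ssc-miR-133a-3p, listed read at 161 d: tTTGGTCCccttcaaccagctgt
ssc-miR-133b, annotated: tTTGGTCCccttcaaccagctat
ssc-miR-133b, listed read at all ages: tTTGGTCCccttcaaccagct
ssc-miR-133a-5p, annotated and listed read at all ages: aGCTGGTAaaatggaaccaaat

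For ssc-miR-133a-3p, the read listed at 63 and 98 d had 22 nt, with 1 base more at the 3′ end than the 21-nt annotated form. At 161 d it was 23 nt and also began 1 base earlier. The seed of the listed read at 161 d was therefore that of ssc-miR-133b. How the pipeline picks the listed read is not given in the sources used here, and whether the change lies in that choice was not tested. Counting from 1 at the 5′ end, the 161 d read and annotated ssc-miR-133b, both 23 nt, differ by the single substitution A22G (ssc-miR-133b first). The listed read of ssc-miR-133b was 21 nt at every age, which is 2 bases shorter than annotated at the 3′ end and leaves out position 22. No porcine name outside the family had a listed read with any of these seeds. Among names of other species, only oan-miR-133c had one, with both 3p seeds.

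The hairpins are shown because they set which reads can be told apart. Capitals mark the reads that the 63 d list gives for the 5p and the 3p arm.
ssc-mir-133a-1: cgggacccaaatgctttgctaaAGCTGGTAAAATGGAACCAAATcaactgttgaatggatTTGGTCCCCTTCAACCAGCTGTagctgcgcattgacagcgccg
ssc-mir-133a-2: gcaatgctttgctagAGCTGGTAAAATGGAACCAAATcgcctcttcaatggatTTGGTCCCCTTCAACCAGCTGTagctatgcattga
ssc-mir-133b: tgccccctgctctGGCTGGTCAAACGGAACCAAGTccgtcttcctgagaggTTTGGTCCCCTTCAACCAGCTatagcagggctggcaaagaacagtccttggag

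Around the 3p arm, ssc-mir-133a-1 and ssc-mir-133a-2 are identical over 33 nt, and around the 5p arm over 23 nt. Neither annotated miR-133a arm can thus be assigned to 1 of the 2 hairpins. The 3p arm of ssc-mir-133b is identical to those of both miR-133a hairpins over 21 nt, and this stretch is exactly the listed read of ssc-miR-133b. The files place ssc-mir-133a-1 at 69274653 to 69274755 on the − strand, ssc-mir-133a-2 at 99485201 to 99485288 on the + strand and ssc-mir-133b at 52430285 to 52430388 on the + strand, on 3 different reference sequences. The genome build and chromosome names are not given in the sources used here. ssc-miR-1 lay on the same sequence and strand as ssc-mir-133a-1 with 10637 bases between the hairpins, and ssc-miR-206 lay 3760 bases from ssc-mir-133b. No other porcine mature name was listed within 50000 bases of ssc-mir-133a-2. In the RefSeq annotation of another build, MIR1 and MIR206 are likewise the nearest genes on 1 side of MIR133A-1 and MIR133B, and MIR133A-2 lies within the span of MIB1, a ubiquitin ligase gene.

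The expression level of ssc-miR-133a-3p, the loaded strand, was the highest of all porcine miRNAs in each of the 3 libraries. The 63, 98 and 161 d libraries held 633747, 874568 and 986145 of its reads. In the 63 d library these were 432681 CPM (95% exact Poisson interval 431616 to 433747), compared with 361663 CPM in the 98 d library (360905 to 362422) and 439710 CPM in the 161 d library (438843 to 440579). The level was lowest at 98 d, and the 63 and 161 d levels lay close together. The next most abundant porcine name was ssc-miR-378 at 63 d, which ssc-miR-133a-3p exceeded 8.84-fold. At 98 and 161 d it was ssc-miR-26a, exceeded 6.21-fold and 9.56-fold. The family as a whole took 43.5%, 36.4% and 44.2% of the reads at 63, 98 and 161 d.

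**Figure D1:**
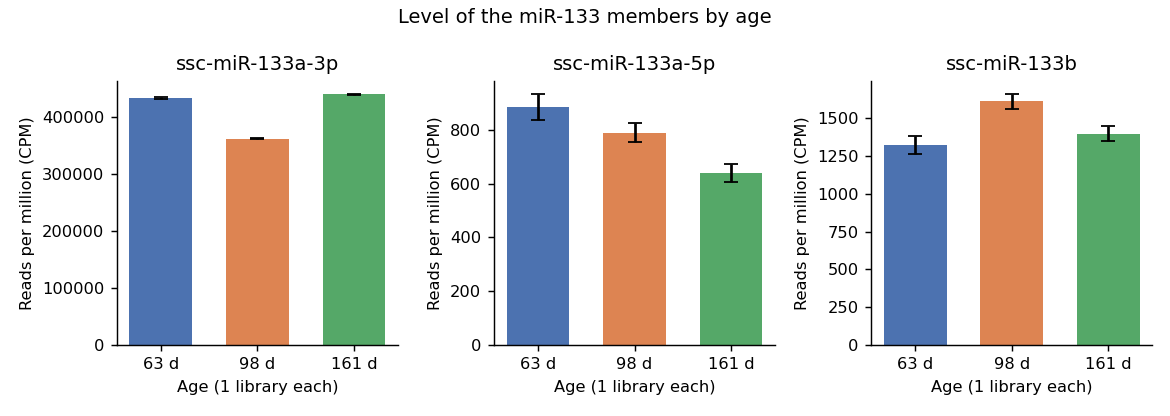
Level of each miR-133 member (CPM, vertical axis from 0) in the 1 library of each age (horizontal axis), with a separate scale per member; lines show the 95% exact Poisson interval, which covers counting error only and is approximate for ssc-miR-133b. ssc-miR-133a-3p was lowest at 98 d (361663 CPM), ssc-miR-133a-5p was lowest at 161 d (639 CPM) and ssc-miR-133b was highest at 98 d (1613 CPM).

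The CPM of ssc-miR-133a-3p at 98 d was 0.836 times that at 63 d (95% exact interval of the ratio 0.833 to 0.839), and at 161 d it was 1.22 times that at 98 d (1.21 to 1.22). Both differences exceeded counting error (exact binomial test, two-sided, adjusted p = 1e-300, the smallest value given, in each). Over the whole span the ratio was 1.02 (1.01 to 1.02, exact binomial test, adjusted p = 5.98e-23). A ratio this close to 1 was called because of the depth of the counts. On copies of the listed read it was 0.979, but that sets the 22-nt read at 63 d against the 23-nt read at 161 d. So large a member affects the shares left for all others. From 63 to 98 d, porcine names with a ratio above 2 or below 0.5 numbered 33 and 8. On the total without miR-133 they numbered 23 and 16. From 98 to 161 d they were 6 and 30, against 8 and 26 on that total, and from 63 to 161 d 18 and 26 against 18 and 25. Beyond such a change of total, the part of this member in the other ratios was not tested. The median ratio of all porcine names was 1.23 from 63 to 98 d, 0.807 from 98 to 161 d and 1.01 from 63 to 161 d. Relative to those medians, ssc-miR-133a-3p stood at 0.682, 1.51 and 1.01.

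The listed read of ssc-miR-133a-3p accounted for 280675 reads at 63 d and 381364 at 98 d. At 161 d the other, earlier-starting read accounted for 420557. These were 44.3%, 43.6% and 42.6% of the reads of the name. The remaining 55.7%, 56.4% and 57.4% are not broken down by sequence, so the share of reads with each start, and with it each seed, is unknown at every age. Whether the seed used in the muscle changed between 98 and 161 d was not tested.

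The 2 hairpin rows of ssc-miR-133a-3p were not equal. At 63 d ssc-mir-133a-1 had 304184 reads and ssc-mir-133a-2 had 329564. At 98 d the values were 420142 and 454426, and at 161 d they were 474551 and 511595. The row of ssc-mir-133a-2 was 1.08 times the other in every library. Reads that fitted without an error were almost the same at both hairpins, differing by 1.5, 4.5 and 0 reads at the 3 ages. Reads with at least 1 mismatch made up the rest of the gap, being 8.43%, 8.41% and 7.91% of the row at ssc-mir-133a-1 and 15.5%, 15.3% and 14.6% at ssc-mir-133a-2. The difference between the hairpin rows was thus carried by mismatched reads at all 3 ages.

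The lists give each hairpin both the number of whole reads that fit it and a count in which a read is divided among the hairpins it fits. The division was taken to be equal, as the documentation of the pipeline was not at hand. The family's 3 pairs of totals limit how many reads fitted which hairpins. At 63 d, 607233 to 607243 reads fitted both miR-133a hairpins and no other, which is 95.3% of the family. Those fitting only ssc-mir-133a-2 were 25380 to 25385, or about 3.99%. Nearly all of these held a mismatch, as the error-free counts of the 2 hairpin rows of ssc-miR-133a-3p differed by only 1.5 reads. Reads fitting only ssc-mir-133a-1 were between 0 and 5. The pattern was the same at the later ages: both miR-133a hairpins held at least 836627 reads at 98 d and 945756 at 161 d, ssc-mir-133a-2 alone 3.89% and 3.74% of the family, and ssc-mir-133a-1 alone at most 3 and 8 reads. Hardly any read was therefore particular to ssc-mir-133a-1, the hairpin beside mir-1, and its output cannot be told apart from that of ssc-mir-133a-2.

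**Figure D2:**
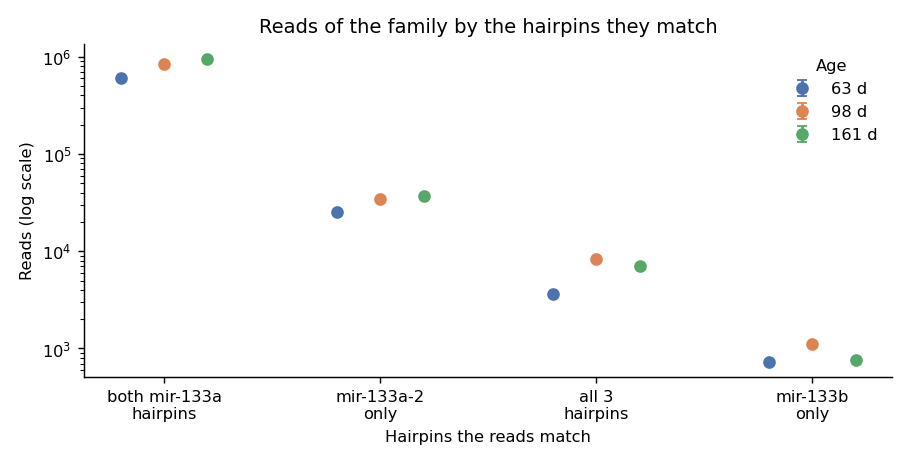
Reads of the family (log scale, vertical axis) by the hairpins they match (horizontal axis), solved from whole and divided read totals; points are the middle of the possible range, which is narrower than the point. Reads that fit both miR-133a hairpins outnumbered all other classes at every age, and reads that fit only ssc-mir-133b were the fewest of the 4 classes drawn. Nearly all reads that fit only ssc-mir-133a-2 held a mismatch.

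ssc-miR-133a-5p, the partner strand, was much rarer than the 3p arm. The 63 d library held 1298 reads (886 CPM, 95% exact Poisson interval 839 to 936), the 98 d library 1908 (789 CPM, 754 to 825) and the 161 d library 1433 (639 CPM, 606 to 673). The levels were in descending order with age, and the 3 intervals did not overlap. It ranked 53rd of 263 porcine names at 63 d, 63rd of 268 at 98 d and 66th of 265 at 161 d. The listed read was the annotated 22-nt form at each age, and it alone made up 71.0%, 70.0% and 75.0% of the reads, so this arm had a more uniform sequence than the 3p arm.

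The CPM ratio of ssc-miR-133a-5p was 0.890 from 63 to 98 d (95% exact interval 0.829 to 0.956, exact binomial test, adjusted p = 2.43e-03). From 98 to 161 d it was 0.810 (0.756 to 0.868, exact binomial test, adjusted p = 4.33e-09). This step equalled the median of all names, at 1.00 relative to it, and was 1.005 under median-of-ratios scaling, with adjusted p = 9.41e-01 in the exact binomial test. From 63 to 161 d the ratio was 0.721 (0.668 to 0.778, exact binomial test, adjusted p = 7.40e-17), and it lay between 0.712 and 0.762 under every alternative run.

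The share of the 5p arm among all miR-133a reads is free of any scaling between libraries. In the 63 d library it was 0.204% (95% Wilson interval 0.194 to 0.216), in the 98 d library 0.218% (0.208 to 0.228) and in the 161 d library 0.145% (0.138 to 0.153). The 3p arm thus outnumbered the 5p arm 488-fold, 458-fold and 688-fold. The 5p share at 161 d was below those at 98 d (ratio 0.667, Fisher's exact test, two-sided, adjusted over 6 share tests p = 3.27e-31) and 63 d (ratio 0.710, Fisher's exact test, adjusted p = 9.15e-19). The 63 and 98 d shares did not differ beyond counting error (ratio 1.07, Fisher's exact test, adjusted p = 9.88e-02). When only copies of the listed reads were counted, the shares were 0.327%, 0.349% and 0.255%. The listed read of ssc-miR-133a-3p was another sequence at 161 d, so the last share is not directly comparable with the others.

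ssc-miR-133b is the paralogue whose annotated form differs from annotated ssc-miR-133a-3p at both ends. It had 1940 reads in the 63 d library (1324 CPM, 95% exact Poisson interval 1266 to 1385), 3901 in the 98 d library (1613 CPM, 1563 to 1665) and 3140 in the 161 d library (1400 CPM, 1352 to 1450). The 98 d level was the highest, and the intervals of 63 and 161 d overlapped. It ranked 46th, 44th and 46th among the porcine names. Much of this count is made of parts of divided reads, so its intervals and tests only approximate counting error. The CPM ratio was 1.22 from 63 to 98 d (95% exact interval 1.15 to 1.29, exact binomial test, adjusted p = 2.50e-12), 0.868 from 98 to 161 d (0.828 to 0.910, exact binomial test, adjusted p = 9.39e-09) and 1.06 from 63 to 161 d (0.999 to 1.12, exact binomial test, adjusted p = 7.93e-02). Relative to the median of all names these ratios were 0.994, 1.08 and 1.05. The change from 63 to 98 d was therefore that of the typical porcine miRNA, and the direction from 98 to 161 d turned with the scaling, being 1.055 with TMM (adjusted p = 4.56e-02 in the exact binomial test) and 1.08 with median of ratios.

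Most reads counted for ssc-miR-133b also fitted miR-133a. Whole reads fitting its hairpin, its few 5p reads included, numbered 4364, 9465 and 7911 at 63, 98 and 161 d. Reads that fitted all 3 hairpins were 82.8 to 83.2% of them in the first library, 87.9 to 88.0% in the second and 90.0 to 90.3% in the third. The listed 21-nt read, which is 1 of these, had 1950, 5263 and 4215 copies, and an equal division gives the hairpin 650, 1754 and 1405 of them, or 33.5%, 45.0% and 44.7% of its count. Because this read is a stretch of miR-133a as well, these copies may belong to either miRNA, and their origin cannot be told apart.

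Only reads that fit no other hairpin are called particular to ssc-miR-133b here. Leaving out its 5p arm, the 63 d library held 722 to 727 of them, the 98 d library 1117 to 1120 and the 161 d library 746 to 754. They were 493 to 496 CPM, 462 to 463 CPM and 333 to 336 CPM, with the lowest level at 161 d. On these reads the ratio was 0.935 from 63 to 98 d (95% exact interval 0.851 to 1.03, exact binomial test, adjusted p = 2.12e-01) in place of 1.22. It was 0.723 from 98 to 161 d (0.659 to 0.794, exact binomial test, adjusted p = 1.54e-11) and 0.677 from 63 to 161 d (0.61 to 0.75, exact binomial test, adjusted p = 2.95e-13) in place of 1.06. The direction from 63 to 98 d and from 63 to 161 d thus depended on the shared reads. This way of counting was chosen after the data were seen, and the ratios use the middle of each range. Other scalings were not run on the particular reads. The median ratios of all names in the pairs 63 to 98 d, 98 to 161 d and 63 to 161 d were 1.23, 0.807 and 1.01. Placed reads may hold a mismatch, and annotated ssc-miR-133b differs from the 161 d listed read of ssc-miR-133a-3p by 1 base. Whether altered miR-133a reads are among the particular reads was not tested.

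**Figure D3:**
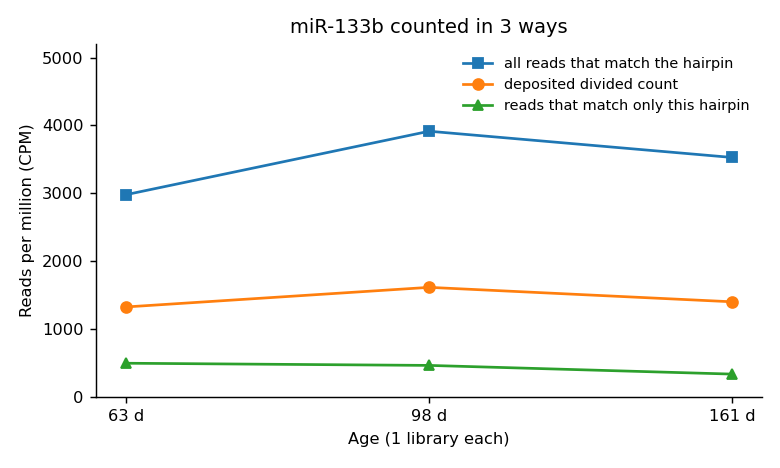
CPM (vertical axis) of ssc-mir-133b in the 1 library of each age (horizontal axis), counted as all reads that match its hairpin, as the deposited divided count, and as the reads that match no other hairpin (middle of the possible range). The first and second lines peak at 98 d (3914 and 1613 CPM), while the third is highest at 63 d and lowest at 161 d.

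The share of ssc-miR-133b among the 3p-arm reads of the family, taken from the deposited counts, came to 0.305% in the 63 d library (95% Wilson interval 0.292 to 0.319), 0.444% in the 98 d library (0.430 to 0.458) and 0.317% in the 161 d library (0.307 to 0.329). The 98 d share was above that at 63 d (ratio 1.46, Fisher's exact test, adjusted p = 1.15e-42), and the 161 d share was below that at 98 d (ratio 0.715, Fisher's exact test, adjusted p = 3.25e-44). The 63 and 161 d shares were not told apart (Fisher's exact test, adjusted p = 1.76e-01). Reads that fit all 3 hairpins stand in part under ssc-miR-133b and in part under ssc-miR-133a-3p. The test needs whole reads in separate cells, so these p-values and intervals do not measure counting error exactly. By reads particular to ssc-miR-133b the shares were 0.114%, 0.128% and 0.0760%. The 98 d share had the highest value either way, and the 161 d share was the lowest by the particular reads alone. Differences between the shares by particular reads were not tested.

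Reads with a mismatch made up 12.1%, 12.0% and 11.4% of ssc-miR-133a-3p and 10.4%, 11.6% and 8.34% of ssc-miR-133a-5p at 63, 98 and 161 d. In ssc-miR-133b they made up 22.1%, 19.1% and 20.7%. Over all reads of the lists the values were 17.2%, 18.5% and 17.6%, so both miR-133a arms held fewer mismatched reads than the lists as a whole and ssc-miR-133b held more. Their part in the results above was not tested beyond the counts of reads without error, in which every ratio of the members kept its direction.

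Across all porcine mature names with at least 10 reads in 1 of the 2 libraries, a ratio above 2 or below 0.5 was found in 16.9% from 63 to 98 d, 14.8% from 98 to 161 d and 18.5% from 63 to 161 d. None of the 3 members passed this limit in any pair, under the counting used here or any alternative. By the exact binomial test with adjusted p below 0.05, 68.3%, 62.3% and 68.5% of all names were called in the same pairs. The members called were 3, 3 and 2 of 3, and with so many names called this sets them little apart from the rest. The 3 pairs share libraries and are not independent of each other.

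**Figure D4:**
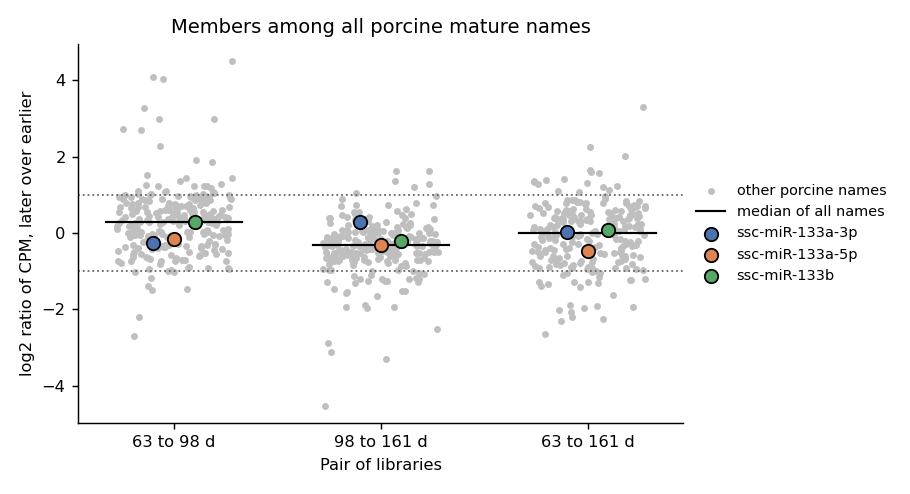
The log2 ratio of CPM of the later over the earlier library (vertical axis) for every porcine mature name tested in each pair of libraries (horizontal axis); grey points are other names, black lines the median of all names, dotted lines the limits of 2-fold, and 1 name with no reads at 63 d is left out of both pairs that hold that library. All members lie inside the 2-fold limits, and from 98 to 161 d ssc-miR-133a-3p lies above 86.1% of the names.

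ssc-miR-133a-3p had a lower ratio than most names from 63 to 98 d, with only 24.7% of them below it. From 98 to 161 d 86.1% lay below it, and from 63 to 161 d 50.4% did. ssc-miR-133a-5p lay above 28.0%, 50.8% and 29.8% of the names in the same pairs. By its deposited count ssc-miR-133b lay near the middle, above 49.0%, 58.6% and 52.9%. By its particular reads it lay lower, above 30.0%, 36.9% and 26.5%. Whether the courses of the members differ was not tested, apart from the shares within the family given above.

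miR-1, the cluster neighbour of ssc-mir-133a-1 and a promoter of myoblast differentiation, had 18128, 76517 and 47677 reads at 63, 98 and 161 d. Its level was 12377, 31642 and 21259 CPM, highest at 98 d where ssc-miR-133a-3p was lowest. Per read of ssc-miR-1 the 63 d library held 34.96 reads of ssc-miR-133a-3p (95% exact interval 34.5 to 35.5), the 98 d library 11.4 (11.4 to 11.5) and the 161 d library 20.7 (20.5 to 20.9). This ratio needs no scaling between libraries, and its intervals did not overlap. ssc-miR-133a-3p also counts reads of ssc-mir-133a-2, next to which no miR-1 row was listed.

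miR-206, a miRNA of skeletal muscle and the neighbour of ssc-mir-133b, had 2779, 6571 and 2962 reads, or 1897, 2717 and 1321 CPM. Per read of ssc-miR-206 the 63 d library held 0.698 reads of ssc-miR-133b (95% exact interval 0.658 to 0.740), the 98 d library 0.594 (0.571 to 0.618) and the 161 d library 1.06 (1.01 to 1.12). By the deposited counts the ratio was highest at 161 d. By the reads particular to ssc-miR-133b it was 0.261 (0.240 to 0.283), 0.170 (0.160 to 0.181) and 0.253 (0.233 to 0.274) at 63, 98 and 161 d, so that the 63 and 161 d intervals overlapped. The 98 d ratio was the lowest by either count.

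**Figure D5:**
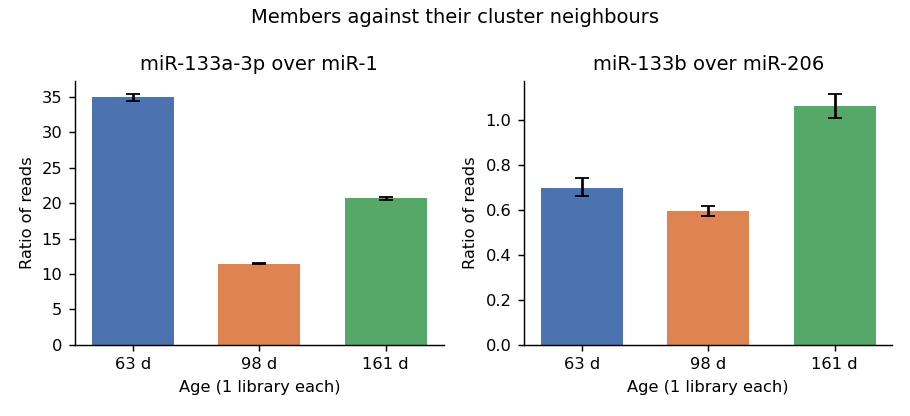
Reads of ssc-miR-133a-3p per read of ssc-miR-1 (left) and of ssc-miR-133b per read of ssc-miR-206 (right) in the 1 library of each age, on vertical axes from 0; lines show the 95% exact interval, which covers counting error only and is approximate for ssc-miR-133b. Both ratios were lowest at 98 d (11.4 and 0.594). The second uses the deposited miR-133b count, and its maximum at 161 d (1.06) was not seen with the reads particular to ssc-miR-133b (0.261 at 63 d and 0.253 at 161 d).

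Of a list of 6 other muscle miRNAs, 5 had enough reads for a test. From 63 to 98 d 2 of the 5 rose past 2-fold and none fell, with a median ratio of 1.63, while 16.9% of all names passed the limit (33 higher and 8 lower of 243). These were ssc-miR-1 (2.56-fold, 95% exact interval 2.52 to 2.60) and ssc-miR-208b, a miRNA of a slow myosin gene (2.13-fold, 1.96 to 2.30). From 98 to 161 d 1 fell past 2-fold, ssc-miR-206 (0.486-fold, 0.465 to 0.508), and the median was 0.672, while 14.8% of all names passed. The scaling decided 2 of these 3 calls: ssc-miR-208b was 1.84-fold with TMM and 1.75-fold with median of ratios, and ssc-miR-206 was 0.591-fold and 0.603-fold. From 63 to 161 d none passed the limit. ssc-miR-499-5p, from another slow myosin gene, went from 1034 to 1685 and 995 CPM, and ssc-miR-499-3p had 2, 9 and 5 reads. ssc-miR-486, found in muscle and red blood cells, stayed between 38678 and 40909 CPM. Up to 98 d the list's median ratio lay above that of all names (1.23), while the ratio of ssc-miR-133a-3p lay below it.

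Among 55 other porcine names with at least 1000 reads in each library, those with the course over age nearest to ssc-miR-133a-3p were ssc-miR-181a, ssc-miR-486 and ssc-miR-27a. Likeness was measured as the distance between log2 CPM values centred on their mean over the 3 libraries, and it was 0.18, 0.18 and 0.23. ssc-miR-181a, the nearest, went from 18408 to 12923 and 17019 CPM, with the same low value at 98 d. For ssc-miR-133b the nearest were ssc-miR-191, ssc-miR-30a-5p and ssc-miR-27b-3p, at distances of 0.07, 0.07 and 0.08 by its deposited count. By its particular reads these distances were 0.49, 0.53 and 0.44, and ssc-let-7a was the nearest at 0.03, so the names depend on the shared reads. With 3 libraries, many names lie near any course.

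Markers of other cells moved between the libraries too. The skeletal muscle markers (4 of 4 listed, ssc-miR-133a-3p and ssc-miR-133b among them) took 44.8%, 39.8% and 46.4% of reads at 63, 98 and 161 d. Blood markers (4 of 5 listed) took 0.144%, 0.254% and 0.177%, and endothelial markers (2 of 2) took 0.583%, 0.977% and 0.676%. Both were highest at 98 d, where ssc-miR-133a-3p was lowest. Liver and epithelial markers (2 of 4 listed) took 0.0171%, 0.0426% and 0.0250% and were also highest at 98 d, with 11, 297 and 12 reads of ssc-miR-122, a liver miRNA. Smooth muscle markers (2 of 2) took 0.938%, 1.18% and 2.72%, highest at 161 d. Nearly all of the muscle sum was ssc-miR-133a-3p itself. Without it the other 3 muscle markers (ssc-miR-1, ssc-miR-206 and ssc-miR-133b) took 1.56%, 3.6% and 2.4%, highest at 98 d and below the smooth muscle markers at 161 d. All 4 muscle markers had reads in every library, and ssc-miR-223, ssc-miR-200b and ssc-miR-200c were not listed at any age. In muscle as a whole, fewer cells of a type and less RNA per cell cannot be told apart, and the part of these markers in the levels of the family was not tested.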

How the data were processed

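Total RNA of psoas major, pooled over pigs at each age, was made into 1 TruSeq small RNA library per age and sequenced by Illumina. The authors processed reads with ACGT101-miR 4.2 against miRBase hairpins and a genome whose build is not given in the sources used here. The deposited expected counts per row were taken to be reads divided equally among the hairpins they fit, while the deposited whole counts give the copies of 1 listed read and all reads that fit a hairpin. Divided counts were summed over hairpins per name, rounded to whole numbers in tests and scaled to the sum of each list, which is not the full sequencing depth (1464699, 2418187 and 2242716 reads; 3 counts, the floor, were 2.05, 1.24 and 1.34 CPM). Rows with a blank name were read as continuing the row above.

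Pairs of libraries were compared with a two-sided exact binomial test and Clopper-Pearson intervals, adjusted by Benjamini-Hochberg over all porcine mature names with 10 or more reads in 1 library of the pair. Shares were compared by Fisher's exact test. Tests and intervals of ssc-miR-133b by its deposited count treat summed parts of reads as whole reads and are approximate. Reads by hairpin were solved from whole and divided totals, assuming equal division. Of 704 hairpin entries, whole reads equalled the sum of divided reads to within 0.05 reads in 419 and exceeded it in 285. The binomial test and the solving of reads by hairpin were tried on simulated counts, and Fisher's exact test was not. Alternatives used TMM (edgeR 4.0.16), median of ratios (DESeq2 1.42.0), other totals, hairpin rows, listed copies, reads without mismatch, a pseudocount of 1 and other minimum counts. Python 3.11.15 and scipy 1.17.1 were used. PCR reads without molecular identifiers are not independent molecules. The named miRNAs were the members, a list of muscle miRNAs, cell markers, and the 3 names nearest in course. Members, lists and rules were chosen with earlier results of these data known.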

Additional observations from a re-analysis of the deposited data

Results flagged for a closer look

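miR-133 rows outside the porcine mature names also held reads. Names of other species took 1044, 1405 and 1601 reads in the 63, 98 and 161 d libraries, which is 0.165%, 0.161% and 0.162% of the reads of ssc-miR-133a-3p in the same libraries. Of these, 995, 1327 and 1553 stood in a single row of ppy-miR-133a, a primate name, of which 0, 0 and 1 fitted without a mismatch. The 5p arm of ssc-mir-133b, which has no annotated mature name, held 2, 7 and 4 reads, against a floor of 3 counts. These values were noted because they lie outside the members' counts, and no count or ratio of a member includes them. The 5p reads of ssc-mir-133b do stand in the whole reads of that hairpin, in the percentages of them and in the reads by hairpin, with their plots.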

How the results depend on the processing

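No paired analysis was possible because each age has 1 library, so no library could be left out either. No alternative took a member past 2-fold. The cause of the changes below was not tested. For ssc-miR-133a-3p the ratio from 63 to 161 d turned to 0.979 on copies of the listed read, and its other 26 values kept direction and call. Their size did vary. Over the alternatives its ratio lay between 0.686 and 0.85 from 63 to 98 d and between 1.189 and 1.508 from 98 to 161 d. Its listed read at 161 d was another sequence, so ratios and shares on its copies compare unlike reads there. For ssc-miR-133a-5p from 98 to 161 d the ratio was 0.984 with TMM and 1.005 with median of ratios, and neither was called. For ssc-miR-133b, the 63 to 98 d ratio was 1.052 with TMM and 1.0 with median of ratios, neither called, and 0.935 on reads particular to its hairpin. From 98 to 161 d it was 0.989 on the total without miR-133, not called, 1.055 with TMM and 1.077 with median of ratios. From 63 to 161 d it became a call at 1.07 on the total without miR-133, 1.11 with TMM, 1.077 with median of ratios, 1.081 on reads without mismatch and 1.412 on copies of the listed read, and turned to 0.677 on particular reads. The 5p share at 63, 98 and 161 d was 0.327%, 0.349% and 0.255% on copies. The miR-133b share at these ages was 0.585%, 0.851% and 0.610% for the hairpin with most reads (which leaves out 1 miR-133a hairpin by construction), 0.690%, 1.36% and 0.992% on copies, 0.270%, 0.408% and 0.284% on reads without mismatch, and 0.114%, 0.128% and 0.0760% on particular reads. Names past 2-fold, 41, 36 and 44 in the 3 pairs, became 21, 19 and 24 with a minimum of 100 reads, where fewer names were tested. They split into 33 higher and 8 lower, 6 and 30, and 18 and 26. With TMM they split into 22 and 17, 12 and 18, and 19 and 23, with median of ratios into 16 and 23, 13 and 15, and 18 and 25, and on the total without miR-133 into 23 and 16, 8 and 26, and 18 and 25. The fewest reads behind a member were 1298 for ssc-miR-133a-5p at 63 d, and 722 to 727 where only particular reads of ssc-miR-133b were counted. Particular reads in the ratio, rank and course of ssc-miR-133b, other scalings of the muscle list and its markers without ssc-miR-133a-3p were chosen after the data were seen.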
